A study of Mus musculus with 24 samples.

Results

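Expression of 9 genes that mark GABAergic interneurons (Gad1, Gad2, Slc32a1, Pvalb, Calb2, Reln, Lhx6, Erbb4 and Nos1) was followed in the hippocampal CA1 subfield during the first 3 days after pilocarpine-induced status epilepticus (SE). The genes were chosen by name: every row of the count table whose Ensembl identifier carries one of these symbols was taken, which gave 9 of the 18647 genes counted, and all 9 were among the 18153 genes that passed the filter on low counts. The table held 24 polyA RNA libraries of microdissected CA1, with 3 libraries in each of 8 groups. Non-SE controls were sampled at 12, 36 and 72 h (Ctr 12 h, Ctr 36 h and Ctr 72 h), and SE animals at the same hours and also at 6 and 24 h (SE 6 h to SE 72 h). All animals were adult C57Bl/6N mice of at least 60 days and 20 g, and every animal, control or not, was given 1 mg/kg scopolamine methyl nitrate before the injection and 4 mg/kg diazepam after it. SE animals received 335 mg/kg pilocarpine hydrochloride and were kept only if they developed SE, while controls received saline. The SE groups therefore hold animals selected for having responded to the drug. The groups sampled 6 and 24 h after SE have no control group of their own hour, and they were compared with the mean of the 3 control groups, so those comparisons share their controls with each other and with the matched ones.

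Interneurons of the hippocampus release GABA, which the enzymes encoded by Gad1 (GAD67) and Gad2 (GAD65) make from glutamate and the transporter encoded by Slc32a1 (VGAT) loads into synaptic vesicles. The class divides by developmental origin and content. Lhx6 is a transcription factor of interneurons born in the medial ganglionic eminence, among them fast-spiking cells with the calcium-binding protein parvalbumin (Pvalb), while calretinin (Calb2) marks interneurons that largely contact other interneurons, and Reln and Nos1 (neuronal nitric oxide synthase) mark partly overlapping groups such as neurogliaform and ivy cells. Erbb4 encodes the neuregulin receptor through which excitatory input onto interneurons is regulated, and loss of interneurons in the hilus and CA1 is a long-known feature of the pilocarpine model. In bulk RNA, fewer cells of a type and less RNA per cell cannot be told apart.

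Library totals ran from 2663936 to 30133731 counts, with a median of 13521590. The lowest count of a member in any library was 24 for Calb2 and 744 for Gad1, so Calb2 carries the largest counting error. Neuron markers were present in all 24 libraries, with summed levels between 6637 and 11740 CPM (counts relative to library size, scaled by the trimmed mean of M values, TMM), and 7 markers of CA1 pyramidal cells, the cells that define the subfield, summed to between 496 and 1761 CPM. RNA of another tissue was also present: 13 markers of sensory ganglia, such as Prph and Scn10a, summed to over 400 CPM in 6 libraries (SE 6 h replicate 3, SE 12 h replicate 1, SE 36 h replicate 3, SE 72 h replicates 1 and 2, and Ctr 72 h replicate 2, the last with 2371 CPM) and to at most 105 CPM in the other 18. Leaving out these 6 libraries was tried after the data had been seen, and calls of members that it added or removed are named with their values. SE 72 h then rests on 1 library, which is assumed to vary like the other groups.

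The sequences upstream of Erbb4, Nos1 and Reln are shown because these genes carried the largest responses, lower for Erbb4 and Nos1 and higher for Reln. Each is the 250 bases before the start of the gene's canonical transcript in GRCm39 (GENCODE M39), 5′ to 3′ on the gene's strand, and capitals mark letters found in a search on both strands for AP-1 (TGANTCA), CRE (TGACGTCA), Egr (GCGNGGGCG), a homeodomain core (TAATTA), a GC box (GGGCGG) and a TATA box (TATAAA). Erbb4 (chr1:69147620-69147869, minus strand) held 1 GC box and Nos1 (chr5:117979585-117979834, plus strand) held none of the 6 motifs. Reln (chr5:22549701-22549950, minus strand) held 6 GC boxes and 2 Egr matches, which overlap each other and 1 of the GC boxes.
Erbb4: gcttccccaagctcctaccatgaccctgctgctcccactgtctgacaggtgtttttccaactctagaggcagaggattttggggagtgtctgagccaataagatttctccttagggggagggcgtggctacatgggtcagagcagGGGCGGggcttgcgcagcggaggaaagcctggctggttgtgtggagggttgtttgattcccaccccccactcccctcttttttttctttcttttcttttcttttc
Nos1: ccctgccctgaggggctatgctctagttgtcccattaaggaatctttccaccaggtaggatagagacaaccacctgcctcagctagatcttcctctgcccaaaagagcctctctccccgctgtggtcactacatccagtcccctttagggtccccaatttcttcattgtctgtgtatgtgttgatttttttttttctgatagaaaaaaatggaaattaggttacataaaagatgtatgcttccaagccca
Reln: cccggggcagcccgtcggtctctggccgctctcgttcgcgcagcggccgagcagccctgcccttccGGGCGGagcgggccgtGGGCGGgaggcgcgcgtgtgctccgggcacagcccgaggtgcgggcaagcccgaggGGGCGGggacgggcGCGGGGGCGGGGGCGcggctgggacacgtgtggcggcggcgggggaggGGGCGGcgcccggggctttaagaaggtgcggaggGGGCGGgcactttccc
Of 18552 such windows, one for each annotated gene of the table, 42.7% held a GC box, 5.38% an Egr match, 5.22% an AP-1 match, 1.83% a CRE, 3.54% a homeodomain core and 8.62% a TATA box. The windows differed in base composition, with 80.8% G and C in Reln, 54% in Erbb4 and 45.2% in Nos1, against a median of 55.2% over all windows. Of the other members, Calb2 and Lhx6 also held GC boxes, and the AP-1 match of Lhx6 was the only one among the 9 genes. A match is a run of letters, and binding was not measured.

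Of the 9 genes, Erbb4 and Nos1 were lower than control over most of the time course, Reln was higher at 6 and 12 h, and Slc32a1 and Lhx6 were lower at 72 h, while Gad1, Gad2, Pvalb and Calb2 were not called against control at any hour. A gene was called a differentially expressed gene (DEG) against control at an adjusted p of at most 0.05 and a Log2FC of at least 0.66 in either direction (edgeR quasi-likelihood test, Benjamini-Hochberg adjustment over all 18153 genes). At 12 h after SE 3 of the 9 were DEGs, against 25.2% of all genes tested: Reln was higher (13.9% of all genes in this direction), and Erbb4 and Nos1 were lower (11.4%). At 36 h 2 were called, against 21.6% of all genes, and these were Erbb4 and Nos1, lower (8.91%). At 72 h 4 were called, against 19.4% of all genes, and Slc32a1, Lhx6, Erbb4 and Nos1 were all lower (4.21%). At 6 h 2 were called, against 22% of all genes, with Reln higher (15.8%) and Nos1 lower (6.21%). At 24 h Erbb4 and Nos1 were lower (9.21% of all genes in this direction, 24.1% in either). The median Log2FC of the 9 genes was 0.19 for SE 6 h, -0.18 for SE 12 h, 0.02 for SE 24 h, -0.25 for SE 36 h and -0.52 for SE 72 h. The median of all genes tested lay between 0.00 and 0.10.

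With the adjusted p alone, 5 of the 9 genes passed for SE 6 h (39.9% of all genes), 3 for SE 12 h (38.5%), 5 for SE 24 h (41.3%), 2 for SE 36 h (31.7%) and 5 for SE 72 h (28.1%). Between successive SE hours a Log2FC of 1 was asked for. No member was called for SE 12 h against SE 6 h (1.34% of all genes), SE 24 h against SE 12 h (3.18%) or SE 36 h against SE 24 h (0.529%), and 1 was called, Reln, lower, for SE 72 h against SE 36 h (4.13%, 1.05% lower). By edgeR's adjusted p alone these steps passed for 1 (Erbb4, 4.53% of all genes), 1 (Reln, 9.08%), 0 (0.87%) and 5 (Gad1, Gad2, Reln and Lhx6 lower and Nos1 higher, 10.3%) members. At an unadjusted p under 0.05 in the same test, 5 members passed for the step from SE 6 h to SE 12 h (20.5% of all genes), 1 for SE 12 h to SE 24 h (24.6%) and 5 for SE 24 h to SE 36 h (16.6%). For SE 36 h to SE 72 h 8 passed (25%), in both directions. Without the 6 ganglion-rich libraries Pvalb was a call for SE 12 h against SE 6 h (Log2FC -1.40, adjusted p = 0.0215), SE 36 h against SE 24 h (-1.16, adjusted p = 0.0398) and SE 72 h against SE 36 h (1.25, adjusted p = 0.0487). Reln was then a call for SE 24 h against SE 12 h (-1.07, adjusted p = 0.00201) and no longer for SE 72 h against SE 36 h (-0.94, adjusted p = 0.0507).

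**Figure D1:**
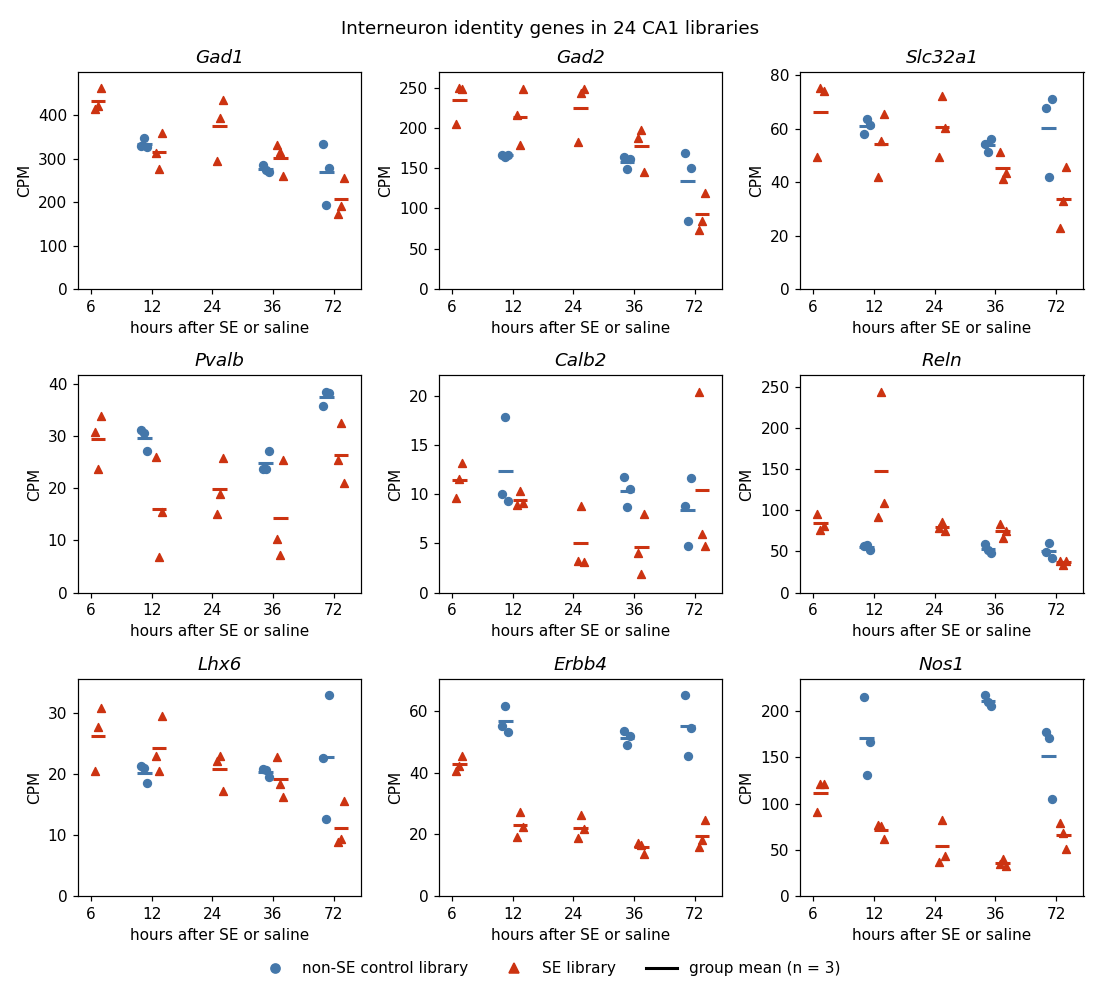
Level of each of the 9 genes in every library (y axis, TMM-scaled CPM) by hours after SE or saline (x axis, not to scale); points are libraries, blue circles non-SE controls, red triangles SE, and bars the mean of 3 libraries. All 15 SE libraries lie below all 9 control libraries for Erbb4, while Gad1 and Gad2 are highest at 6 h and lowest at 72 h after SE.

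**Figure D2:**
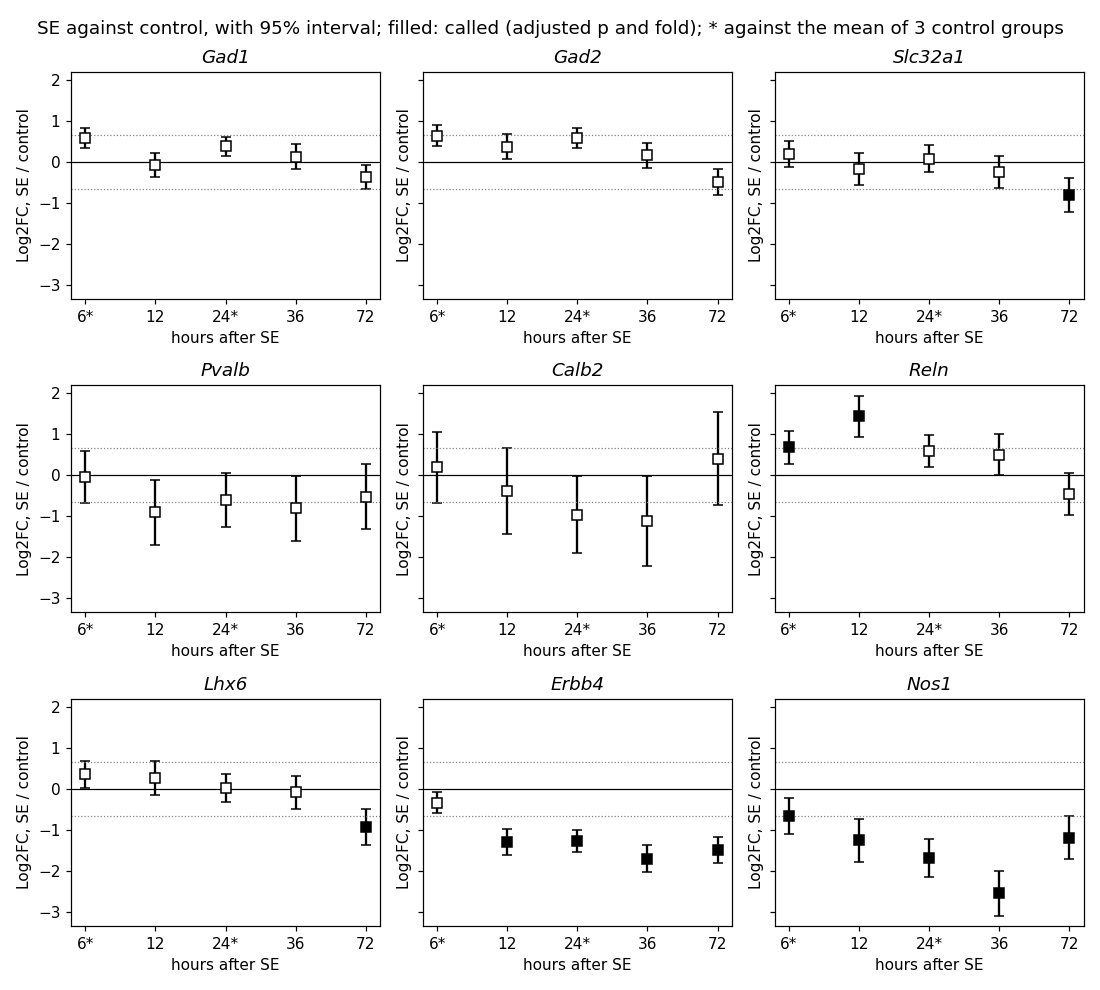
Log2FC of SE against control (y axis) by hours after SE (x axis) for each gene, with 95% confidence intervals from the edgeR fit; filled squares passed both the adjusted p and the fold threshold, dotted lines mark a Log2FC of 0.66 in either direction, and asterisks mark hours compared with the mean of the 3 control groups. Filled squares stand below 0 for Erbb4 at 12 to 72 h and for Nos1 at every hour, and above 0 for Reln at 6 and 12 h.

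Gad1 and Gad2, which encode the enzymes of GABA synthesis, were modestly higher at 6 and 24 h after SE and fell back later. Gad1 (ENSMUSG00000070880.11, chr2:70383416-70432372) stood at 414, 421 and 462 CPM at SE 6 h, against 330, 346 and 327 at Ctr 12 h, 284, 274 and 269 at Ctr 36 h and 334, 193 and 279 at Ctr 72 h. All 3 libraries of SE 6 h lay above all 9 control libraries, and the share of all genes so separated was not counted. The Log2FC of Gad1 at 6 h was 0.58 ± 0.11 (SE of the fit, adjusted p = 0.000415), below the fold threshold. At SE 12 h Gad1 stood at 312, 275 and 358 CPM, within reach of its controls (Log2FC -0.09, 95% interval -0.38 to 0.21). At SE 24 h it stood at 294, 393 and 435 CPM (Log2FC 0.37, adjusted p = 0.0123). At SE 36 h it was 332, 315 and 259 CPM and overlapped Ctr 36 h.

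Gad1 was lowest at 72 h after SE, at 172, 192 and 256 CPM, where Ctr 72 h replicate 2 (193 CPM, the library richest in sensory ganglion RNA) overlapped the SE libraries. The Log2FC there was -0.37 ± 0.14 (adjusted p = 0.0597). From SE 36 h to SE 72 h the Log2FC of Gad1 was -0.55 (adjusted p = 0.0172), short of 1.

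Gad2 (ENSMUSG00000026787.4, chr2:22511862-22583886) followed Gad1 at 6 and 24 h and departed from it at 12 h. It stood at 205, 249 and 248 CPM at SE 6 h and 182, 243 and 248 CPM at SE 24 h. No control library exceeded 169 CPM, so that neither group overlapped any control. How many of all genes were so separated was not counted. The Log2FC was 0.64 at 6 h (adjusted p = 0.000302) and 0.58 at 24 h (adjusted p = 0.000633). At 12 h Gad2 stood at 215, 179 and 248 CPM in SE and 167, 164 and 167 CPM in controls. The 2 groups did not overlap, as was the case for 24.5% of all genes in this direction, and the Log2FC of 0.37 had an adjusted p of 0.0598.

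At 36 h Gad2 overlapped its controls (187, 198 and 145 CPM against 164, 149 and 161). At 72 h it stood at 73.4, 84.9 and 120 CPM in SE against 169, 83.9 and 150 CPM in controls, with a Log2FC of -0.50 ± 0.15 (adjusted p = 0.0192). The control library at 83.9 CPM was again Ctr 72 h replicate 2. Without it the Log2FC was -0.79 and passed the fold threshold, and without the 6 ganglion-rich libraries it was -0.42 (adjusted p = 0.159). The SE effect on Gad2 was lower at 72 h than at 12 h by a Log2FC of 0.87 (difference -0.87, adjusted p = 0.00748, with 22.2% of all genes called and 8.2% in this direction). The call was lost with the range of the sample numbers in the fit (-0.79, adjusted p = 0.0755) and without Ctr 72 h replicate 1 (-0.64, adjusted p = 0.0522). The sample numbers, whose meaning the labels do not give, were 167 to 169 in Ctr 72 h and 104, 119 and 120 in SE 72 h. For every gene, SE and the range of these numbers therefore cannot be told apart within 72 h.

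Slc32a1 (ENSMUSG00000037771.12, chr2:158452605-158464883), the vesicular GABA transporter, did not share the early rise and was lower at 72 h. Its levels at SE 6 h were 49.2, 75.2 and 74.2 CPM, spread around the control values of 41.9 to 71.2 CPM. At SE 12, 24 and 36 h its Log2FC was -0.18, 0.07 and -0.25, with adjusted p of 0.483, 0.749 and 0.343. At 36 h its levels of 51.1, 41.1 and 43.4 CPM were nevertheless all below the 54.1, 51.4 and 56 CPM of controls, as for 26.2% of all genes in this direction. At 72 h it stood at 22.8, 33.1 and 45.6 CPM against 67.8, 41.9 and 71.2 CPM, and the overlap came from Ctr 72 h replicate 2 alone. The Log2FC was -0.82 ± 0.20 (adjusted p = 0.004). Without the 6 ganglion-rich libraries it was -0.60 (adjusted p = 0.116), and without SE 72 h replicate 1, itself ganglion-rich, it was -0.59 (adjusted p = 0.0349), in both cases short of a call. Slc32a1 shares 302 bases of its exons with Gm14204 and 697 with Gm14205, both on the opposite strand. Only Gm14204 has a row of its own in the count table. Counting did not use strand, and the effect of these overlaps on the Slc32a1 counts was not tested.

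Lhx6 (ENSMUSG00000026890.20, chr2:35971964-35995601), the transcription factor of medial ganglionic eminence interneurons, was close to control until 36 h and lower at 72 h. Its Log2FC was 0.36 at 6 h (adjusted p = 0.0792), 0.26 at 12 h, 0.02 at 24 h and -0.09 at 36 h. At SE 36 h it stood at 22.9, 18.4 and 16.4 CPM, around the 20.9, 20.7 and 19.6 CPM of its controls. At SE 72 h it stood at 8.82, 9.35 and 15.6 CPM against 22.7, 12.6 and 33 CPM (Log2FC -0.93 ± 0.21, adjusted p = 0.00227). The 12.6 CPM of Ctr 72 h replicate 2 fell inside the SE range. The Log2FC was -0.79 without the 6 ganglion-rich libraries (adjusted p = 0.0827) and -0.63 without Ctr 72 h replicate 3 (adjusted p = 0.043), and neither was a call. The SE effect on Lhx6 differed between 72 h and 12 h by a Log2FC of -1.19 (adjusted p = 0.00601, beside the same 22.2% and 8.2% of all genes), and the call was lost without the 6 ganglion-rich libraries (-1.08, adjusted p = 0.0534).

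Markers of other cells also moved at 72 h. The summed level of 12 neuron markers was between 6637 and 7826 CPM in SE 72 h and between 9596 and 11740 CPM in Ctr 72 h. The highest sum was that of Ctr 72 h replicate 2, the library richest in sensory ganglion RNA. At an adjusted p of at most 0.05, 6 of the 12 were lower, against 28.1% of all genes in either direction. All 8 microglia markers were DEGs, higher, with a median Log2FC of 2.18, against 19.4% of all genes called in either direction. The 8 astrocyte markers summed to between 11920 and 13566 CPM in SE 72 h and between 3833 and 4699 CPM in Ctr 72 h. Sensory ganglion markers summed to 1263, 685 and 27.7 CPM in SE 72 h and to 17.7, 2371 and 105 CPM in Ctr 72 h. The part of any of these in the lower Slc32a1, Lhx6 and Gad2 was not tested.

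Pvalb (ENSMUSG00000005716.17, chr15:78075314-78091149), the calcium-binding protein of fast-spiking basket cells, was lower in several SE libraries but passed the thresholds in no matched comparison. At 12 h it stood at 26, 6.83 and 15.5 CPM in SE and 31.2, 30.6 and 27.1 CPM in controls. The groups did not overlap, as was the case for 23.2% of all genes in this direction, and the Log2FC of -0.90 ± 0.38 had an adjusted p of 0.064. At 36 h it stood at 10.3, 7.17 and 25.4 CPM against 23.7, 23.7 and 27.1 CPM (Log2FC -0.81, adjusted p = 0.114). At 72 h it stood at 25.5, 32.4 and 20.9 CPM against 35.8, 38.5 and 38.2 CPM, again without overlap, as for 13.4% of all genes in this direction (Log2FC -0.52, adjusted p = 0.33). SE 6 h was at 30.8, 23.6 and 33.9 CPM and SE 24 h at 15, 18.9 and 25.8 CPM, with a Log2FC of -0.04 and -0.60.

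The SE libraries with the highest Pvalb at 12 h (26 CPM) and 36 h (25.4 CPM) were the ones rich in sensory ganglion RNA, with 908 and 1160 CPM of its markers against at most 17.3 CPM in the other SE libraries of those hours. At SE 6 h the ganglion-rich replicate 3 held 33.9 CPM of Pvalb, against 30.8 and 23.6 CPM. At SE 72 h the ganglion-rich replicates 1 and 2 held 25.5 and 32.4 CPM, against 20.9 CPM. In Ctr 72 h the richest library, replicate 2 with 2371 CPM of the markers, held 38.5 CPM, close to the 35.8 and 38.2 CPM of its group. Parvalbumin is also made by some sensory neurons, and their part in the level of Pvalb was not tested. Without the 6 ganglion-rich libraries the Log2FC of Pvalb was -1.49 at 12 h (adjusted p = 0.000449) and -1.50 at 36 h (adjusted p = 0.000728), and both were calls, while at 72 h it was -0.81 (adjusted p = 0.141). Over the mean of the 5 SE groups against the mean of the 3 control groups the Log2FC was -0.57 with all libraries (adjusted p = 0.016) and -0.91 without the 6. Of 14 alternative fits, this one included, 6 called Pvalb at 12 h and 3 called it at 36 h, all lower.

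**Figure D3:**
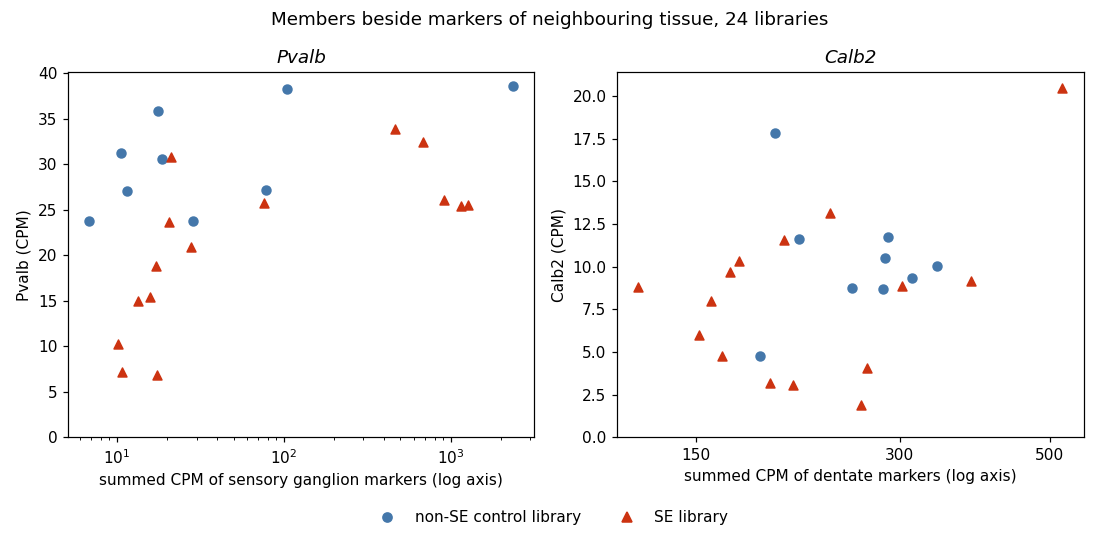
Left, Pvalb level (y axis, CPM) against the summed level of sensory ganglion markers (x axis, CPM, log axis) and right, Calb2 level against the summed level of dentate granule and mossy cell markers (x axis, CPM, log axis), one point for each of 24 libraries (blue circles controls, red triangles SE). The SE libraries with over 400 CPM of ganglion markers all lie above 25 CPM of Pvalb, as do SE 6 h replicate 1 and SE 24 h replicate 3, which are not ganglion-rich. The library with the highest dentate markers (522 CPM) has the highest Calb2 (20.5 CPM).

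Calb2 (ENSMUSG00000003657.10, chr8:110864128-110894881), the calretinin gene, had the widest spread of the 9 and no call against control at any hour. At SE 24 h it stood at 3.19, 8.8 and 3.08 CPM and at SE 36 h at 4.08, 1.89 and 7.98 CPM. Ctr 36 h was at 11.7, 8.72 and 10.5 CPM, above all 3 SE 36 h libraries, as for 26.2% of all genes in this direction. The Log2FC at 36 h was -1.11 ± 0.52 (adjusted p = 0.114), and the 2 replicates that remain without SE 36 h replicate 3 gave -1.78 (adjusted p = 0.0295). Without the 6 ganglion-rich libraries Calb2 was a call at 36 h (Log2FC -1.79, adjusted p = 0.00357) and at 24 h (-1.15, adjusted p = 0.00584). Of 14 alternative fits 4 called it at 24 h and 2 at 36 h, all lower.

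At 72 h Calb2 was 20.5, 6.01 and 4.77 CPM in SE and 8.78, 4.77 and 11.6 CPM in controls, a Log2FC of 0.40 (95% interval -0.73 to 1.54). The library at 20.5 CPM, SE 72 h replicate 1, also held 522 CPM of dentate granule and mossy cell markers, against 151 and 164 CPM in the other SE 72 h libraries. Calretinin is abundant in mouse hilar mossy cells. Controls of that hour summed to 255, 186 and 213 CPM, so only replicate 1 of SE 72 h lay above them and the other SE libraries lay below. Of the 10 dentate markers 7 were DEGs, higher, and 1 was lower at 72 h, against 19.4% of all genes called in either direction. Their part in the level of Calb2 was not tested.

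Reln (ENSMUSG00000042453.15, chr5:22089452-22549700), the secreted glycoprotein reelin, was the only one of the 9 genes called higher against control. It stood at 91.8, 245 and 109 CPM at SE 12 h against 56.7, 57.3 and 51.9 CPM at Ctr 12 h. All SE libraries were above all controls of that hour, as for 24.5% of all genes in this direction, and replicate 2 was far above the other SE libraries. The Log2FC was 1.43 ± 0.24 (adjusted p = 0.000123), and without that replicate it was 0.87 (adjusted p = 8.84e-05). That library also had the highest summed Cajal-Retzius markers of its group, 98.1 CPM against 66 and 53.9, and the lowest Pvalb. Most of this sum is Cacna2d2, with a mean of 57.3 CPM over the SE libraries. The means of Trp73, Ebf3 and Nhlh2 were 1.55, 2.48 and 1.73 CPM, so the sum is a weak measure of these cells. Cajal-Retzius cells are a reelin source in the hippocampus, and none of their 4 markers tested was a DEG at 12 h. Their part in the level was not tested.

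Reln was already higher at SE 6 h (95.6, 76.3 and 81.4 CPM, Log2FC 0.68, adjusted p = 0.00759), where it passed the fold threshold narrowly and lost the call in 2 of 14 alternative fits. It stood at 78.1, 86.4 and 74.3 CPM at SE 24 h (Log2FC 0.59, adjusted p = 0.0171) and at 83.1, 66.4 and 75 CPM at SE 36 h, above the 59.6, 51.3 and 47.8 CPM of Ctr 36 h (Log2FC 0.50, adjusted p = 0.119). No SE library of 6 to 36 h was below the highest control of 60.7 CPM, and the share of all genes so separated was not counted. Between SE 36 h and Ctr 36 h alone, 25.8% of all genes were separated in this direction. At 72 h Reln stood at 38.3, 33.7 and 38.7 CPM in SE against 49.2, 60.7 and 42 CPM in controls. The SE libraries were below all controls there, as for 13.4% of all genes, and the test did not pass (Log2FC -0.45, adjusted p = 0.185). The step from SE 36 h to SE 72 h had a Log2FC of -1.02 (adjusted p = 0.0109), and the SE effect at 72 h was lower than that at 12 h by a Log2FC of 1.88 (difference -1.88, adjusted p = 0.000921).

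Erbb4 (ENSMUSG00000062209.16, chr1:68071345-69147619), the neuregulin receptor, was lower in all 15 SE libraries (13.8 to 45.5 CPM) than in any of the 9 control libraries (45.53 to 65.2 CPM). The nearest values were 45.5 CPM in SE 6 h replicate 3 and 45.53 CPM in Ctr 72 h replicate 2, both ganglion-rich. It was the only member so separated, and 1.7% of all genes were separated in this direction. At SE 6 h it stood at 40.5, 42.2 and 45.5 CPM (Log2FC -0.34, adjusted p = 0.0312), short of the fold threshold. At 12 h it stood at 19.3, 27.2 and 22.5 CPM against 55.3, 61.7 and 53.2 CPM, a Log2FC of -1.30 ± 0.15 (adjusted p = 2.14e-06).

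The lower level of Erbb4 held to the last hour sampled. At SE 24 h it was 18.8, 26.2 and 21.7 CPM (Log2FC -1.28, adjusted p = 1.99e-07). At 36 h it was 17.2, 16.5 and 13.8 CPM against 53.4, 48.9 and 51.8 CPM, its lowest point (Log2FC -1.70 ± 0.15, adjusted p = 7.87e-08). At 72 h it was 15.9, 18.2 and 24.8 CPM against 65.2, 45.5 and 54.4 CPM (Log2FC -1.49 ± 0.15, adjusted p = 5.04e-07). Between SE 6 h and SE 12 h Erbb4 fell by 0.90 on the log2 scale (adjusted p = 0.00352), short of the Log2FC of 1 set for steps between SE hours. No difference between the SE effects at 12, 36 and 72 h passed the test, with Log2FC of the differences between -0.40 and 0.21. The calls at 12, 24, 36 and 72 h were kept in every alternative fit and with every single library left out, among them the fit without the ganglion-rich libraries (Log2FC -1.19, -1.32, -1.61 and -1.28).

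Nos1 (ENSMUSG00000029361.19, chr5:117918971-118096905), neuronal nitric oxide synthase, was also lower at every hour, most at 36 h. SE 6 h stood at 90.5, 121 and 121 CPM, within the control range of 105 to 217 CPM for 2 of its libraries (Log2FC -0.66, adjusted p = 0.0153), a value just past the fold threshold that was lost in 6 of 14 alternative fits. At 12 h Nos1 stood at 77, 75.3 and 61.2 CPM against 214, 130 and 166 CPM (Log2FC -1.26 ± 0.25, adjusted p = 0.000536). At SE 24 h it stood at 37.3, 82.3 and 43.4 CPM (Log2FC -1.69, adjusted p = 5.24e-06). All libraries from 12 to 72 h after SE were below all controls, and the share of all genes so separated was not counted. Against controls of the same hour, 23.2% of all genes were separated in this direction at 12 h, 26.2% at 36 h and 13.4% at 72 h.

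At 36 h Nos1 was at 35.3, 39.8 and 32.8 CPM in SE and 217, 209 and 206 CPM in controls, the largest difference of any member (Log2FC -2.55 ± 0.26, adjusted p = 3.85e-07). At 72 h it was at 79.2, 67.8 and 51.3 CPM against 177, 171 and 105 CPM (Log2FC -1.20 ± 0.25, adjusted p = 0.00128). The SE effect at 36 h exceeded that at 12 h by a Log2FC of -1.29 (adjusted p = 0.0426, with 3.83% of all genes called and 1.62% in this direction) and that at 72 h was smaller than at 36 h by 1.35 (adjusted p = 0.0302, with 5.35% and 3.92%). Both tests sat close to the threshold: the first was lost in 6 of 13 alternative fits and in 10 of 13 fits that left out a library, and the second in 2 of 13 and 9 of 12. Without the 6 ganglion-rich libraries the values were -1.16 (adjusted p = 0.0913) and 1.00 (adjusted p = 0.342), and the difference of Reln between 36 h and 12 h became a call (-1.12, adjusted p = 0.0179). The fall of Nos1 at 12, 24, 36 and 72 h was called in all alternatives. CA1 pyramidal markers also differed at 36 h, with sums of 956 to 1126 CPM in SE and 1695 to 1761 CPM in Ctr 36 h. They summed to 882 to 1380 CPM in Ctr 12 h and to 1029 to 1307 CPM in Ctr 72 h. The part of pyramidal cells in the Nos1 levels was not tested. Nos1 also shares 268 bases of its exons with the opposite-strand gene Gm26995. The effect of this overlap on the Nos1 counts was not tested.

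Set against Gad1 within the same library, the 9 genes did not move as a block. Erbb4 reads were 16.3% to 23.6% of Gad1 reads in the 9 control libraries and 4.99% to 10% in the 15 SE libraries, without overlap. At 72 h Slc32a1 (13.2% to 17.8% in SE, 20.3% to 25.5% in controls) and Lhx6 (4.88% to 6.1% and 6.54% to 11.8%) did not overlap either. Shares of Pvalb, Calb2 and Reln overlapped at that hour. How many of all genes were so separated relative to Gad1 was not counted. Nos1 reads were 37.7% to 88.4% of Gad1 reads in controls and 9.97% to 45.9% after SE, where only SE 72 h replicate 1 reached the control range. Gad2 reads lay between 64.9% and 69.1% of Gad1 reads at SE 12 h, against 47.5% to 51% at Ctr 12 h, and between 42.6% and 46.8% at SE 72 h, where controls held 43.5% to 53.6%. These shares need no scaling between libraries, and they show unequal change, not which gene of a pair changed.

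**Figure D4:**
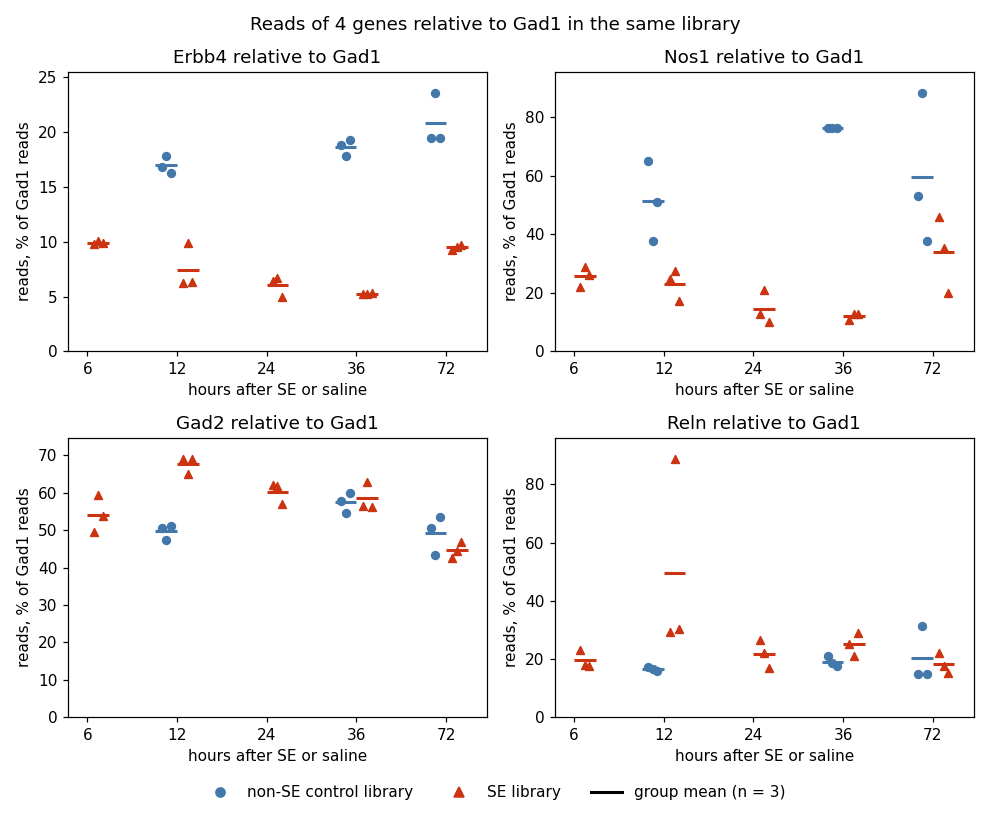
Reads of Erbb4, Nos1, Gad2 and Reln as a percentage of Gad1 reads in the same library (y axis) by hours after SE or saline (x axis, not to scale); blue circles are controls, red triangles SE, bars group means of 3 libraries. Erbb4 shares of SE (4.99% to 10%) and control libraries (16.3% to 23.6%) are separate at all hours, and Gad2 shares stand above control at 12 h. How many of all genes were so separated was not counted.

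Per kilobase of exon (union of all exons of a gene), Gad1 was the most abundant member in controls at 28.1 ± 4.59 CPM per kb (SD, n = 9), followed by Gad2 at 23.4 ± 4.11. Nos1 came next at 15.6 ± 3.45, then Slc32a1 at 11.7 ± 1.77, Pvalb at 8.23 ± 1.55 and Calb2 at 5.47 ± 1.83. Erbb4 (4.26 ± 0.471), Lhx6 (4.12 ± 1.03) and Reln (2.23 ± 0.259) were lowest. Calb2 and Erbb4, and Erbb4 and Lhx6, differed by less than the larger of their SDs, and the other neighbours in this order by more. With the longest transcript as length the order of the first 2 was kept, and Slc32a1 passed Nos1. Erbb4 was at 1.94 ± 0.795 CPM per kb after SE (n = 15), the last of the 9, and with the longest transcript as length it was last in controls too.

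Among 13749 genes with a mean level of at least 1 log2 CPM, the genes whose levels were most like each member over the 24 libraries were named by Pearson correlation of log2 CPM, as a description. The libraries fall into 8 groups and share depth and make-up by group. Gad1 was most like Gad2 (r = 0.93, Spearman rho = 0.89), then Mrps30 and Pitpna, and Gad2 was most like Gad1, Ttc19 and Noc2l. Within groups, after removing group means, Gad1 and Gad2 still had r = 0.95. Slc32a1 was most like Brsk1, Plpp6 and Basp1 (r = 0.87, 0.86 and 0.85), and Lhx6 was most like Impact, Nnat and Slc32a1 (r = 0.88, 0.85 and 0.85). Pvalb was most like Syt2, Kctd8 and Clec2l (r = 0.89, 0.88 and 0.87) and Calb2 most like Gabrg1, Pygm and Sema3c (r = 0.82, 0.79 and 0.79). Reln was most like Ttpal, Rbm18 and Slx9 (r = 0.88, 0.88 and 0.87).

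Erbb4 was most like Plppr3, Dlx1 and Kifc2 (r = 0.95, 0.95 and 0.94) and Nos1 most like Nsg2, Mturn and Abcg4 (r = 0.93, 0.93 and 0.92). Erbb4 and Nos1 had r = 0.89 with each other over all libraries and r = 0.08 within groups, where the highest values of Erbb4 were those with Slc32a1 (r = 0.78) and Gad1 (r = 0.70).

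Other genes of the same pathways were counted from lists, with values for the few of smallest adjusted p in the mean of the 5 SE groups against the mean of the 3 control groups, where 24.3% of all genes were called and 2 of the 9 members were (Erbb4 and Nos1, lower, 7.68% of all genes in this direction). By the adjusted p alone 5 members passed there, against 55% of all genes. The median Log2FC of all genes was 0.06. Genes named beyond those 3 a list were chosen after their values were seen. Of 9 genes of GABA uptake, breakdown and reception 4 were called, all lower, with a median Log2FC of -0.63. Among them were Gabrd, a GABA receptor subunit (-0.80 ± 0.15), Slc6a11 (GAT3), a GABA transporter of astrocytes (-1.45 ± 0.14, adjusted p = 3.03e-08), and Abat, the transaminase that breaks GABA down (-0.76 ± 0.06, adjusted p = 7.31e-09). Slc6a11 ranged from 15.8 to 170 CPM after SE and from 148 to 224 CPM in controls. Of 13 interneuron transcription factors tested 5 were called lower and 2 higher. Among them Dlx1 (-0.92 ± 0.11, adjusted p = 1.06e-06) and Sp9 (-1.09 ± 0.17, adjusted p = 1.69e-05) were lower, and Prox1, also a dentate granule cell gene, was higher (1.20 ± 0.41).

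Of 10 interneuron peptides 6 were called higher over the mean of the SE groups and 1 lower (Tac2), with a median Log2FC of 1.02. At 72 h alone 3 were higher and 3 lower, with a median of -0.42. Npy, a peptide induced by seizures, stood at 41.5 to 233 CPM after SE and 23.1 to 47 CPM in controls (Log2FC 1.93 ± 0.15, adjusted p = 2.17e-09). Crhbp (2.50 ± 0.17, adjusted p = 2.66e-10) and Crh (2.86 ± 0.28, adjusted p = 4.9e-08) were higher too. Crh was low throughout, at 0.877 to 16.2 CPM after SE and 0 to 3.75 CPM in controls. Sst, the somatostatin gene that is expressed with Lhx6 in interneurons of stratum oriens, was higher at 6, 12 and 24 h (Log2FC 1.39, 1.48 and 0.91), stood at a Log2FC of 0.81 at 36 h (adjusted p = 0.0667) and of -0.64 at 72 h (adjusted p = 0.155). Vip was a DEG, lower, at 72 h (Log2FC -0.72, adjusted p = 0.0454).

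Of 20 fast-spiking and surface genes 8 were lower and 1, Tacr1, was higher, with Kcnc2, a potassium channel of fast-spiking cells, at -1.05 ± 0.11 (adjusted p = 9.72e-08), Ndnf at -1.05 ± 0.14 and Lamp5 at -1.13 ± 0.18. Around Erbb4, its ligand Hbegf was higher (3.07 ± 0.14, adjusted p = 1.28e-12) at 35 to 223 CPM after SE against 10.1 to 15.9 CPM in controls, and its partner Erbb2 was higher (1.01 ± 0.24), while the neuregulin Nrg3 had a Log2FC of -0.26. With the ligand Btc, 3 of the 7 genes of that list were called, each higher. Of 7 genes of reelin signalling none was a DEG. The reelin receptor Lrp8 had a Log2FC of 0.58 and the adaptor Dab1 of -0.30, and 4 of the 7 were higher and 1 lower by the adjusted p alone. Of 9 genes of nitric oxide signalling 1 was lower, Gucy1a1 (-1.09 ± 0.15), and 1 higher, the kinase gene Prkg2 (0.84 ± 0.23). Gucy1a1 and Gucy1b1 encode subunits of guanylyl cyclase, the receptor of nitric oxide, and Gucy1b1 had a Log2FC of -0.58 ± 0.05, short of the fold threshold.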

How the data were processed

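The deposited values were whole-number counts per gene. Per the labels and the methods, the authors trimmed paired reads of a TruSeq polyA library with Trim Galore 0.6.6, aligned them with STAR 2.7.8a to GRCm39 and counted them with HTSeq 0.13.5 without regard to strand. No column was left out. Of 18647 gene rows 18552 were matched to a GENCODE M39 symbol by Ensembl identifier. Genes passing the edgeR 4.0.16 expression filter (18153, R 4.3.3) were scaled by TMM and fitted with the quasi-likelihood test on all 24 libraries, with group and 1 RUVr factor (unwanted variation taken from the residuals, loading mostly on Ctr 72 h replicate 2), and p-values were adjusted over all genes by Benjamini-Hochberg. Calls needed an adjusted p of at most 0.05 and a Log2FC of at least 0.66 against control or 1 between SE hours, and the adjusted p alone for differences between SE effects. Levels are TMM-scaled CPM. The fit was tested on simulated data for SE 12 h against Ctr 12 h. Genes given a Log2FC of -2, -1, 1 and 2 were called in 81.2%, 51%, 44% and 50% of cases, and unchanged genes in 0.0342%. Only 48 to 50 of 17737 genes were changed at each size, drawn at random over all levels. No unwanted variation was simulated. In the data 38.5% of all genes passed the adjusted p in this comparison. The adjusted p was thus stricter in the simulation, and these rates do not carry over to the members. A gene that was not called may still have changed. The promoter windows were read from GRCm39.

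The members and gene lists were chosen with earlier results of these data known. All 9 members are named. Of the other lists, the 3 genes with the smallest adjusted p in the mean of the 5 SE groups against controls were eligible to be named, together with Sst, Npy and Vip. Some of these genes are not reported here. For likeness, the 3 genes with the highest Pearson correlation were named. Alternatives tried were no RUVr factor, a sensory ganglion score in its place, DESeq2 1.42.0, limma-voom (limma 3.58.1), DESeq2 size factors, library size only, 2 other filters, adjusted p only, only the groups compared, the range of the sample numbers, a replicate block, thinning, each library left out, and the ganglion-rich libraries left out, the last added after the data had been seen. SE 72 h and Ctr 72 h share no range of sample numbers. SE 24 h held numbers 97 to 99, and no control number was below 109. In these groups SE and the range cannot be told apart. Samples with the same replicate number did not deviate together: in 4 of 9 matched pairs the correlation of deviations was over 0.1 (range -0.20 to 0.18), so replicate numbers were not used as pairs. The labels do not say whether replicates are single animals, and p-values measure the spread between these libraries. Counting error is not the only error, since reads carry no molecular identifiers.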

Additional observations from a re-analysis of the deposited data

Results flagged for a closer look

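The SE effect differed between hours for 4 of the 9 genes by an interaction term of the edgeR fit over all libraries. Between 72 h and 12 h the difference of the Log2FC was -0.87 for Gad2, -1.88 for Reln and -1.19 for Lhx6, where 22.2% of all genes were called. The call of Gad2 was lost in 1 of 13 alternative fits and in 1 of 12 that left out a library, and that of Lhx6 in 1 of 13 alternative fits. For Reln the SE libraries were above their controls at 12 h in 3 of 3 and below them at 72 h in 3 of 3. For Gad2 all 3 SE libraries were above all controls at 12 h, and at 72 h 1 control library lay within the SE range. Of all genes, 24.5% had SE libraries above all controls at 12 h and 13.4% had them below at 72 h. Nos1 was lower than control in every SE library at 12, 36 and 72 h, and its difference was -1.29 between 36 h and 12 h (3.83% of all genes called) and 1.35 between 72 h and 36 h (5.35%). In Ctr 72 h, one of the groups on which the 72 h values rest, replicate 2 held 2371 CPM of sensory ganglion markers, and replicate 3 was the smallest library, with 2663936 counts. SE 72 h and Ctr 72 h also shared no range of sample numbers. The part of these in the differences was not tested.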

How the results depend on the processing

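Calls of Erbb4 and Nos1 at 12, 24, 36 and 72 h, and of Reln at 12 h, passed in every alternative, and no called member changed sign. The number of the 9 genes called moved by over 1.5 times as follows, and smaller moves come after. On the adjusted p alone it was 5 at 6 h, 24 h, over the mean of the SE groups and for SE 72 h against SE 36 h, and 1 for SE 12 h against SE 6 h and SE 24 h against SE 12 h. Without the 6 ganglion-rich libraries, a choice made after the data had been seen, it was 4 at 36 h (adding Pvalb and Calb2), 2 at 72 h (losing Slc32a1 and Lhx6), 4 over the mean of the SE groups, 1 for each of SE 12 h against SE 6 h, SE 24 h against SE 12 h and SE 36 h against SE 24 h, and 0 for the difference between 72 h and 36 h. With only the groups compared it was 4 at 36 h, 1 at 6 h and 3 for the difference between 72 h and 36 h. At 6 h it was 1 with DESeq2, DESeq2 size factors or library size only, and 0 with the range of the sample numbers, which gave 1 for SE 24 h against SE 12 h. The ganglion score and thinning each gave 1 for SE 12 h against SE 6 h and 0 for SE 72 h against SE 36 h. For the difference between 36 h and 12 h it was 0 with no RUVr factor, the ganglion score, library size only, the range of the sample numbers or thinning, and for that between 72 h and 36 h it was 2 with DESeq2 or library size only and 0 with the range of the sample numbers. Smaller moves were from 3 to 4 at 12 h (adding Pvalb) in 6 alternatives, from 2 to 3 at 24 h (adding Calb2) in 4, from 2 to 3 with the ganglion score at 6 h, 36 h and over the mean of the SE groups, from 4 to 5 at 72 h on the adjusted p alone, and from 3 to 2 for the difference between 72 h and 12 h with the range of the sample numbers (losing Gad2) or without the ganglion-rich libraries (losing Lhx6). The cause was not tested.

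With a replicate block the count was 1 at 6 h, where Nos1 moved to a Log2FC of -0.65, while Pvalb at 12 h (-0.98, adjusted p = 0.037) and the difference of Slc32a1 between 72 h and 12 h (-0.66, adjusted p = 0.0492) became calls, and the block changed no other call. The numbers do not pair the samples, so this fit is only a check. Leaving out single libraries gave 3 to 4 calls at 12 h, 2 to 4 at 36 h, 3 to 5 at 72 h, 1 to 3 at 6 h, 2 to 3 at 24 h and over the mean of the SE groups, 0 to 1 for SE 12 h against SE 6 h and SE 24 h against SE 12 h, 0 to 4 for SE 72 h against SE 36 h, 0 to 1 for the difference between 36 h and 12 h, 2 to 4 for that between 72 h and 12 h and 0 to 3 for that between 72 h and 36 h. At 36 h the count of 4 came without SE 36 h replicate 3. With 3 libraries a group, the depth limits Calb2 most, whose counts began at 24.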
